A study of Mus musculus with 4 samples.

Results

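The chemokine ligands measured in white adipose tissue (WAT) and liver of Pnpla7-/- and wild-type mice are described here. The members are all genes whose probe name on the array is Ccl, Cxcl, Cx3cl or Xcl followed by a number, with or without a final letter. This rule used names only and gave 35 ligands of 22326 genes with a symbol, read by 47 of 39429 probes. They comprise 20 CC, 13 CXC, 1 CX3C and 1 XC ligand. The platelet ligands Pf4 and Ppbp carry other names and are given separately.

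PNPLA7 hydrolyses lysophosphatidylcholine, and the title of the series concerns the return of choline from phosphatidylcholine to the methionine cycle in liver. The 4 groups were Pnpla7-/- WAT, wild-type WAT, Pnpla7-/- liver and wild-type liver, all from C57BL/6N mice aged 4 weeks with no treatment named in the labels. Each group was 1 one-colour Agilent array of RNA from a pool of 5 animals, so the spread between animals was not measured, no test could be made, and the precision is limited by the number of arrays. The extraction protocol names livers for every sample, while sex, fat depot and the deleted piece of Pnpla7 are not given in the sources used here.

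Chemokines are small secreted proteins that guide leukocytes through gradients read by G protein-coupled receptors. Ligands such as Ccl2 and Cxcl1 are induced by inflammatory signals and recruit monocytes and neutrophils, while ligands such as Cxcl12 and Cxcl13 position cells in resting tissue. In fat and liver they are made by macrophages, stromal cells, endothelial cells and the parenchymal cells themselves, and several genes of each subfamily lie side by side on a chromosome.

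RefSeq promoter entries of the GRCm38.p6 build matched 24 of the 35 ligands (27 promoters), and 7 of them are shown for the ligands on which the results turn. Cxcl1, Cxcl2 and Cxcl3 are neighbours on chromosome 5 of which the arrays detected Cxcl1 alone. Ccl8 and Ccl12 fell together in Pnpla7-/- WAT, Cxcl13 differed in opposite directions in the tissues, and Cxcl14 fell in Pnpla7-/- WAT. Each run is the 250 bases before the gene's start, 5′ to 3′ on the gene's own strand, and capitals mark the motifs searched for. The positions are chr5:90890995-90891244 (+) for Cxcl1, chr5:90903649-90903898 (+) for Cxcl2, chr5:90785851-90786100 (+) for Cxcl3, chr5:95956689-95956938 (+) for Cxcl13, chr11:82114935-82115184 (+) for Ccl8, chr11:82101595-82101844 (+) for Ccl12 and chr13:56296552-56296801 (-) for Cxcl14.
Cxcl1: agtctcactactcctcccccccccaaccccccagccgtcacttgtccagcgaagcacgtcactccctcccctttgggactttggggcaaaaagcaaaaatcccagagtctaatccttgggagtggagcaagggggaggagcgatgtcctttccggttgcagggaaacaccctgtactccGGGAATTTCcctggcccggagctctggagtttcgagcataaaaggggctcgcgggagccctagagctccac
Cxcl2: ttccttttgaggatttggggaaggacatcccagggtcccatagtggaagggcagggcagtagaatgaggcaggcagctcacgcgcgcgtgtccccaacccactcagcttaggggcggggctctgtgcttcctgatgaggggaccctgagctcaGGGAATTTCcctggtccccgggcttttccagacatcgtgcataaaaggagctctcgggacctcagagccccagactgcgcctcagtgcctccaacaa
Cxcl3: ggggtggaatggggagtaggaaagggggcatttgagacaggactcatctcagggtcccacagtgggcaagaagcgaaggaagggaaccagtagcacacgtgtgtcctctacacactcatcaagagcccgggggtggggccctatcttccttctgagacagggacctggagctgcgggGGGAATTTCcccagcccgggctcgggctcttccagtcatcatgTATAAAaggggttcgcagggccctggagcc
Cxcl13: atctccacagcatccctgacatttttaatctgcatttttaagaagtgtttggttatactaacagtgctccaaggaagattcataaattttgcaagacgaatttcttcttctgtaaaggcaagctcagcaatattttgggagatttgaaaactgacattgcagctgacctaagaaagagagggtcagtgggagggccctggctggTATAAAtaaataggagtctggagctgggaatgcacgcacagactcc
Ccl8: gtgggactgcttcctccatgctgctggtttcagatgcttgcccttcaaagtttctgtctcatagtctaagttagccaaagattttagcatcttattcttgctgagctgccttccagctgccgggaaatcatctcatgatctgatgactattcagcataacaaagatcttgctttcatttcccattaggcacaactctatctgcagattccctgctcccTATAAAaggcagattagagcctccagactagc
Ccl12: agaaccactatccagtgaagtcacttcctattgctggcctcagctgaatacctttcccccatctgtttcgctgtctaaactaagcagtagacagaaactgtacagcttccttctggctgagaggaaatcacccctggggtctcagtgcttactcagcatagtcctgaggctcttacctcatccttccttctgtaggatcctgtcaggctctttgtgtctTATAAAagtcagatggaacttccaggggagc
Cxcl14: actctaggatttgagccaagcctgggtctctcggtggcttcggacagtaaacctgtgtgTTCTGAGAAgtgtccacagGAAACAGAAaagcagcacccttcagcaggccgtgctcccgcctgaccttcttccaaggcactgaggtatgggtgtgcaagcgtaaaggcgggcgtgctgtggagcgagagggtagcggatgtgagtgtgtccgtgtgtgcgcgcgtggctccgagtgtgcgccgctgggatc

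The promoters were searched on both strands. The kappa B motif GGGANTTNC, a form bound by NF-kappa B, was present in 3.54% of 32851 promoters of this length and in those of 5 of 24 ligands. In Cxcl1, Cxcl2 and Cxcl3 it read GGGAATTTC and began at -71, -97 and -73 from the gene's start, in Cxcl10 it read GGGACTTCC at -103, and Cxcl9 held a match on either strand. The TATA motif TATAAA was in 12.4% of all promoters and in 9 of the 24 ligands, beginning at -32 in Ccl8, -31 in Ccl12, -30 in Cxcl3 and -46 in Cxcl13. The interferon-stimulated motif GAAANNGAA (7.13% of all promoters) was in 6 of the 24, Ccl1, Ccl3, Ccl19, Cxcl9, Cxcl10 and Cxcl14, at -172 in Cxcl14. The STAT motif TTCNNNGAA (7.02% of all promoters), which is its own reverse complement, was in 2 of the 24, Ccl17 and Cxcl14, at -191 in Cxcl14. The 1 overlapping pair of matches lay in Ccl9, between TATA motifs. A match is a string of letters in this window and was not tested as a binding site.

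Signals are given as multiples of the array's 75th percentile over all spots other than controls, and differences as log2 ratios of Pnpla7-/- over wild type, which are at least 1 or at most -1 at 2-fold. A probe counted as seen where it was well above background, and as measured in a pair of arrays where it was seen on both. Between 65.5% and 72.6% of an array's spots were well above background, and 0 were saturated. The scanner software's error model, given after ± below, put the error of a log2 ratio at 0.20 in the median over measured probes in either tissue. Probes of the same gene disagreed by 0.23 in WAT and 0.20 in liver (pooled SD). Variation between animals is in neither error. Marker sums add, on each array, the mean signal of each gene measured in the pair over its probes seen on that array. Bright probes thus weigh most, and the probes of a gene can differ between arrays. Adipocyte markers summed to 1087 in Pnpla7-/- WAT and 967 in wild-type WAT, and to 21.97 in Pnpla7-/- liver and 18.4 in wild-type liver, where Adipoq, Lep and Cfd were not seen. Hepatocyte markers summed to 204 in Pnpla7-/- WAT and 141 in wild-type WAT, and to 1769 in Pnpla7-/- liver and 2150 in wild-type liver. Cyp2e1 and Pck1, which fat also expresses, were the brightest of them in WAT (log2 ratios 0.97 and 0.48) and set the direction of the sum, while the other 12 measured were below 0. The single Pnpla7 probe read 0.372 in Pnpla7-/- WAT and 0.739 in wild-type WAT (log2 ratio -0.99), and 7.98 in Pnpla7-/- liver and 9.04 in wild-type liver (-0.18). The probe may lie outside the deleted piece, so the directions below rest on the genotype labels.

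**Figure D1:**
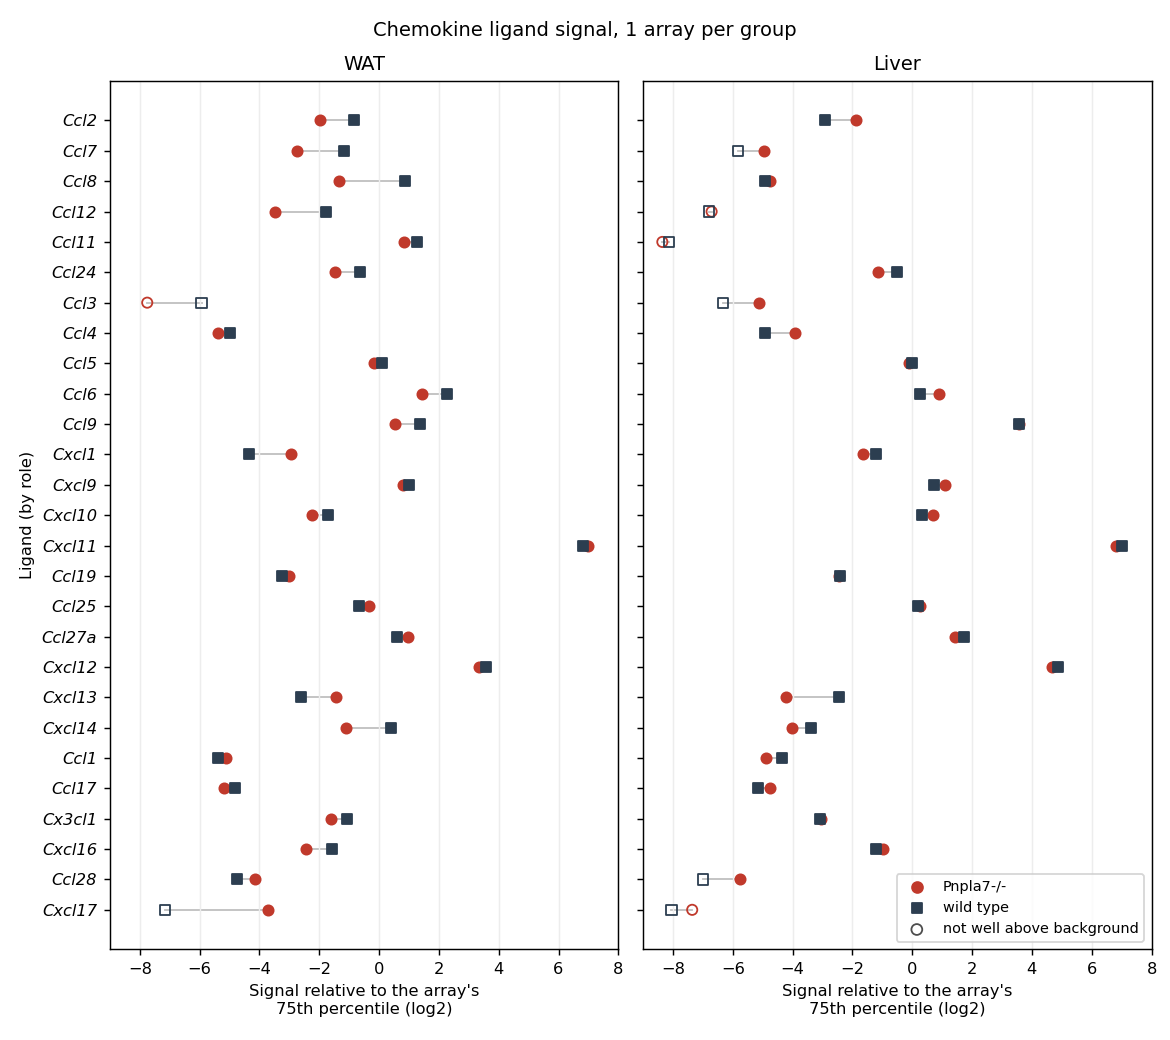
Signal of the 27 ligands seen on at least 1 array, as log2 relative to each array's 75th percentile on the x axis, with WAT on the left and liver on the right and 1 array per point. Red circles are Pnpla7-/- arrays, dark squares are wild-type arrays, and open symbols were not well above background. Ccl11 and Ccl12 are closed symbols in WAT alone, and the largest gaps among ligands seen on both WAT arrays are those of Ccl8 and Ccl12.

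Of the 35 ligands, 21 were seen on all 4 arrays and 8 on none. The 8 were the neutrophil attractants Cxcl2, Cxcl3 and Cxcl5, the lung ligand Cxcl15, the T-cell and dendritic-cell ligands Ccl20, Ccl22 and Xcl1, and the eotaxin Ccl26. Ccl11 and Ccl12 were seen on both WAT arrays and on neither liver array. Ccl7 and Ccl28 were seen on all arrays but wild-type liver, Ccl3 on the Pnpla7-/- liver array alone and Cxcl17 on the Pnpla7-/- WAT array alone. By array, 26 ligands were seen in Pnpla7-/- WAT and 25 in wild-type WAT, and 24 in Pnpla7-/- liver and 21 in wild-type liver. Probes of different ligands shared at most 32 of 60 aligned bases.

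In Pnpla7-/- WAT the monocyte chemoattractant proteins of the CC family fell as a group. Ccl8 was 4.56-fold, Ccl12 3.30-fold, Ccl7 2.98-fold and Ccl2 2.23-fold lower than in wild-type WAT, and Cxcl14 was 2.79-fold lower. Cxcl1, a neutrophil attractant, was 2.61-fold higher, and Cxcl13, the B-cell attractant, 2.28-fold higher. Of 25 measured ligands 5 were at least 2-fold lower (20.0%) and 2 at least 2-fold higher (8.0%), while of 16130 genes 2.01% were lower and 2.16% higher. Ratios were below 0 for 17 of the 25, against 47.2% of all genes, and the median log2 ratio was -0.40 for the ligands and 0.02 for all genes. In pooled tissue RNA, fewer cells of a type and less RNA per cell cannot be told apart.

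**Figure D2:**
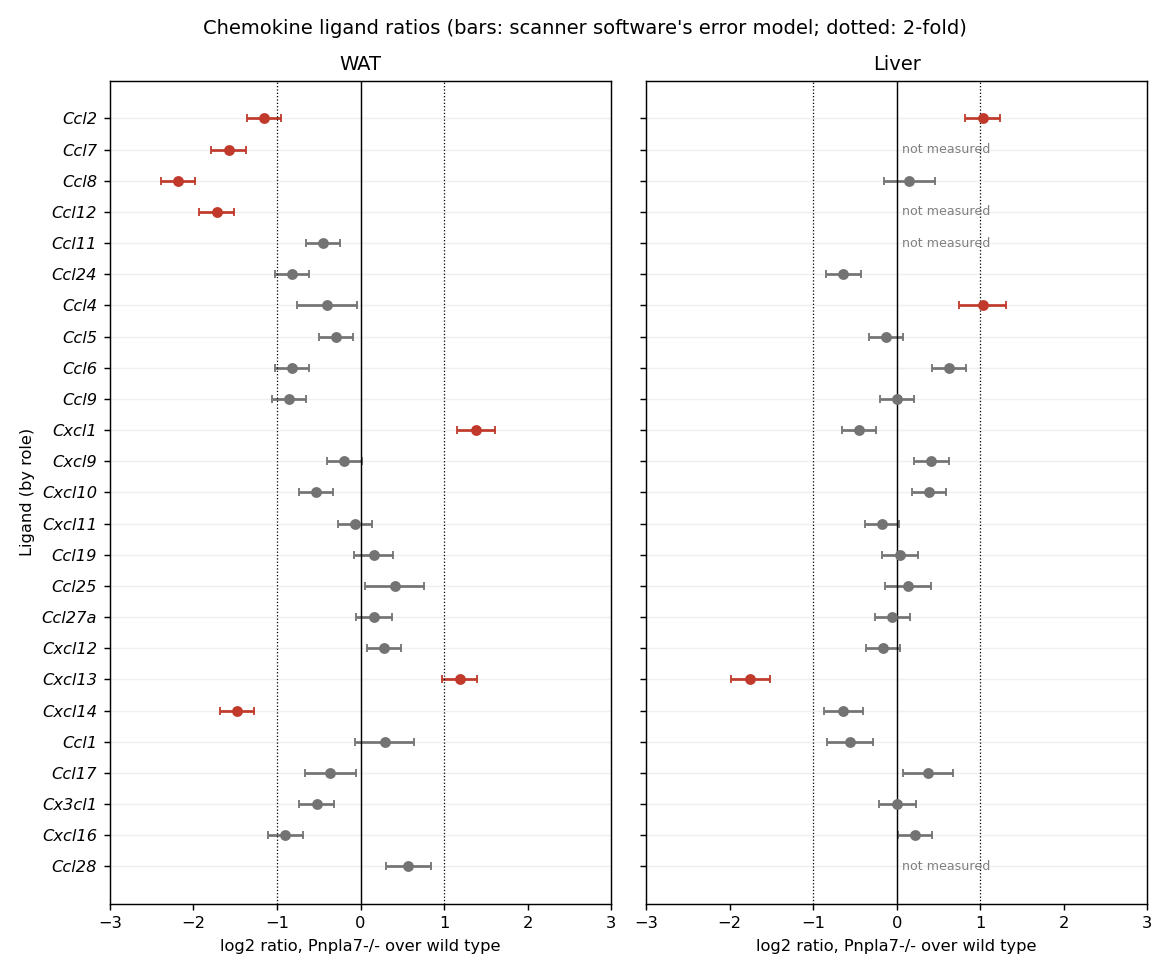
Log2 ratio of Pnpla7-/- over wild type for each measured ligand on the x axis, in WAT on the left and liver on the right, ordered by role. Bars are the scanner software's error model, dotted lines mark 2-fold, and red points are past it. In WAT the red points Ccl2, Ccl7, Ccl8, Ccl12 and Cxcl14 lie left of 0 and Cxcl1 and Cxcl13 right of it, and Cxcl13 lies left of 0 in liver.

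Ccl2, Ccl7 and Ccl12 bind CCR2 on monocytes, and Ccl8, of the same subfamily, acts through CCR8 in mice. All 4 fell in Pnpla7-/- WAT, with a median log2 ratio of -1.65. Ccl8 read 0.399 in Pnpla7-/- WAT and 1.82 in wild-type WAT, a log2 ratio of -2.19 ± 0.20. In liver it read 0.0370 in Pnpla7-/- mice and 0.0333 in wild-type mice, a ratio of 0.15 ± 0.31. The liver ratio turned to -0.67 and -0.89 with normexp, a model-based background correction, with an offset of 50 or 0. Ccl8 was thus high in wild-type WAT, lower in Pnpla7-/- WAT and dim on both liver arrays, where its difference had no settled direction.

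Ccl12 read 0.0888 in Pnpla7-/- WAT and 0.293 in wild-type WAT, a log2 ratio of -1.72 ± 0.21. It was not well above background in either liver, at 0.00956 in Pnpla7-/- mice and 0.00892 in wild-type mice. Ccl7 read 0.150 in Pnpla7-/- WAT and 0.448 in wild-type WAT, a ratio of -1.58 ± 0.21. In liver Ccl7 read 0.0319 in Pnpla7-/- mice and 0.0177 in wild-type mice, where it was not well above background. Both genes followed the order of Ccl8, with wild-type WAT the highest array and Pnpla7-/- WAT the next.

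Ccl2, the main ligand of CCR2, was printed as 10 spots of 1 probe and can be read with its spot error. It read 0.254 in Pnpla7-/- WAT and 0.564 in wild-type WAT, a log2 ratio of -1.15 ± 0.21. The spots gave ratios between -1.30 and -0.96 (SD 0.10, 10 spots), with 9 of the 10 past 2-fold. In liver it read 0.268 in Pnpla7-/- mice and 0.131 in wild-type mice, a ratio of 1.03 ± 0.21, with spots between 0.92 and 1.12 (SD 0.06) and 7 of 10 past 2-fold. Wild-type WAT was the highest array and wild-type liver the lowest, and the Pnpla7-/- arrays of both tissues lay close together. The liver value was close to the 2-fold limit and read 0.97 with quantile normalization and 0.48 or 0.56 with normexp and an offset of 50 or 0.

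Ccl2, Ccl7, Ccl11, Ccl12, Ccl8 and Ccl1 lie in this order on chromosome 11 within 140 kb (their probes span chr11:81850650-81990510 on the mm9 build of the files). In WAT all 6 were measured, with 4 at least 2-fold lower, 5 of 6 ratios below 0 and a median of -1.37. Ccl11, eotaxin-1, which attracts eosinophils through CCR3, read 1.78 in Pnpla7-/- WAT and 2.42 in wild-type WAT (log2 ratio -0.45 ± 0.20). In liver Ccl11 was not well above background, at 0.00305 in Pnpla7-/- mice and 0.00356 in wild-type mice. Ccl1, a ligand of CCR8, read 0.0291 in Pnpla7-/- WAT and 0.0238 in wild-type WAT (0.29 ± 0.35). The differences past 2-fold within this block were thus those of the monocyte chemoattractant proteins.

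Macrophage, dendritic-cell and endothelial markers mostly had ratios below 0 in WAT too. So did T and NK cell (11 of 14 measured), B-cell (6 of 8) and fibroblast markers (9 of 11). Neutrophil markers were nearly even (5 of 9 below 0), and adipocyte markers mostly lay above 0 (10 of 12). In WAT 19 of 20 macrophage markers were measured, of which 16 had ratios below 0 with a median of -0.66, and their summed signal was 16.3 in Pnpla7-/- mice and 24.4 in wild-type mice. Lyz2 (lysozyme, log2 ratio -1.18) and C1qa (a complement component, -1.03) were at least 2-fold lower, and Cd14 (an endotoxin co-receptor, 1.46) and Gpnmb (a gene of lipid-laden macrophages, 1.11) at least 2-fold higher. All 7 measured dendritic-cell markers had ratios below 0, with a median of -0.60 and Cd209a the lowest at -1.09. All 9 measured of 10 endothelial and lymphatic markers had ratios below 0 as well, with a median of -0.47, sums of 13.8 in Pnpla7-/- mice and 17.4 in wild-type mice, and Lyve1, a hyaluronan receptor of lymphatic vessels and some macrophages, at -1.32. The part of these markers in the ligand differences was not tested. The WAT arrays also differed in markers of other cells: 11 of 11 skeletal muscle markers and 8 of 10 brown adipocyte markers were at least 2-fold higher in Pnpla7-/- mice, and 9 of 14 measured hepatocyte markers at least 2-fold lower, with a median of -1.13.

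Ccl3, Ccl4, Ccl5, Ccl6 and Ccl9, which recruit monocytes and T cells, did not reach 2-fold in WAT. All 4 measured ones had ratios below 0, with a median of -0.61. Ccl9, a CCR1 ligand of rodents, read 1.43 in Pnpla7-/- WAT and 2.59 in wild-type WAT (log2 ratio -0.85 ± 0.20). Ccl6, also a rodent ligand of CCR1, read 2.71 in Pnpla7-/- WAT and 4.78 in wild-type WAT (-0.82 ± 0.20). Both differences were larger than their errors and stayed within 2-fold. Ccl5, which attracts T cells, was at -0.29 ± 0.20 and Ccl4 at -0.40 ± 0.35, and Ccl3 was not seen on either WAT array. These 5 genes form a second block on chromosome 11 (chr11:83339296-83478111, mm9).

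The eotaxin Ccl24 read 0.362 in Pnpla7-/- WAT and 0.639 in wild-type WAT (log2 ratio -0.82 ± 0.20). The membrane-anchored ligands, which also act as adhesion molecules, had ratios below 0 within 2-fold: Cxcl16, the ligand of CXCR6, was at -0.90 ± 0.21 and Cx3cl1 (fractalkine) at -0.53 ± 0.21. The interferon-induced ligands of CXCR3, which attract activated T cells, had ratios of -0.53 for Cxcl10, -0.19 for Cxcl9 and -0.06 for Cxcl11. Interferon gamma target genes had 18 of 19 members measured, 0 past 2-fold in either direction and a median of 0.09.

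Cxcl1 was the ligand with the highest ratio in Pnpla7-/- WAT. It read 0.129 in Pnpla7-/- WAT and 0.0493 in wild-type WAT, a log2 ratio of 1.38 ± 0.23, and 0.320 in Pnpla7-/- liver and 0.436 in wild-type liver, a ratio of -0.45 ± 0.21. Both liver arrays lay above both WAT arrays, and wild-type WAT was the lowest. The WAT ratio was 0.92 with normexp and an offset of 50. Cxcl2, Cxcl3 and Cxcl5, its neighbours on chromosome 5 (probes of the block at chr5:91190490-91334593, mm9), were not well above background on any array, and neither was their receptor Cxcr2. Neutrophil markers had a median of -0.0035 in WAT over 9 measured of 11, which turned to 0.02 with quantile normalization, with S100a8 at -2.17 and S100a9 at 0.82, and summed to 46.0 in Pnpla7-/- mice and 49.3 in wild-type mice. Of 21 NF-kappa B feedback and cytokine genes, 14 were measured in WAT with 0 past 2-fold in either direction and a median of -0.24. Il1b and Il6, which encode inflammatory cytokines, were seen on neither WAT array.

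Cxcl13, the ligand of CXCR5 that organises B-cell follicles, differed in opposite directions in the tissues. It read 0.371 in Pnpla7-/- WAT and 0.163 in wild-type WAT, a log2 ratio of 1.19 ± 0.21. It read 0.0540 in Pnpla7-/- liver and 0.182 in wild-type liver, a ratio of -1.75 ± 0.24. Pnpla7-/- WAT was the highest array and Pnpla7-/- liver the lowest, with the wild-type arrays close together between them. The liver ratio lay between -1.86 and -1.49 under 8 settings, the one reported included, and the WAT ratio between 0.97 and 1.26. Its receptor Cxcr5 was at 0.96 in WAT and -0.29 in liver. Cxcr5 was dim, at log2 signals of -4.93 in Pnpla7-/- WAT, -5.89 in wild-type WAT, -5.67 in Pnpla7-/- liver and -5.39 in wild-type liver. The lowest signals well above background on these arrays were -5.77, -6.15, -6.06 and -5.85. B-cell markers, 8 of 10 measured, had a median of -0.03 in WAT (0.04 with normexp) and -0.32 in liver with 0 past 2-fold. With normexp the liver median was -0.79 with 0 past 2-fold (offset 50) or -1.04 with 5 of 8 at least 2-fold lower (offset 0). The markers summed to 0.913 in Pnpla7-/- WAT and 0.879 in wild-type WAT, and to 0.996 in Pnpla7-/- liver and 1.22 in wild-type liver. Of the lymph node stroma markers 3 of 6 were measured in either tissue, with Chst4 at -1.22 in WAT and -0.59 in liver. Their liver median of -0.53 was -0.83 with 1 of 3 at least 2-fold lower (normexp, offset 50) or -1.15 with 3 of 3 (offset 0). The part of these cells in the Cxcl13 differences was not tested.

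Cxcl14, a constitutive ligand made by epithelium and fat, read 0.469 in Pnpla7-/- WAT and 1.31 in wild-type WAT, a log2 ratio of -1.48 ± 0.20. In liver it read 0.0611 in Pnpla7-/- mice and 0.0950 in wild-type mice, a ratio of -0.64 ± 0.23 (-1.07 with normexp and an offset of 0). The ratio was below 0 in both tissues and past 2-fold in WAT, and the difference between the tissues was not tested. Brown adipocytes secrete Cxcl14 in mice, and brown adipocyte markers summed to 157 in Pnpla7-/- WAT and 39.3 in wild-type WAT. Fibroblast markers had a median of -0.44 in WAT with 9 of 11 measured below 0 and sums of 248 in Pnpla7-/- mice and 295 in wild-type mice. The part of brown adipocytes or fibroblasts in the Cxcl14 difference was not tested.

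The other homeostatic ligands stayed within 2-fold in WAT. Cxcl12, which retains haematopoietic cells in bone marrow through CXCR4, had probes of opposite sign. One read 10.1 in Pnpla7-/- WAT and 11.9 in wild-type WAT (log2 ratio -0.24 ± 0.20), and the other 2.05 in Pnpla7-/- WAT and 1.17 in wild-type WAT (0.81 ± 0.20). They are assigned to different transcripts of the gene, at bases 5510 and 1816, and their mean of 0.29 has no settled direction. The part of these transcripts in the opposite signs was not tested. In liver the same probes read 25.5 and 4.25 in Pnpla7-/- mice and 29.6 and 4.60 in wild-type mice, with ratios of -0.21 and -0.11. Its receptor Cxcr4 was past 2-fold in WAT, at -1.09.

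Ccl25, the thymus and gut ligand of CCR9, was at 0.41 in WAT and 0.14 in liver as the mean of its measured probes. Ccl17, a ligand of CCR4 made by dendritic cells, was at -0.36 ± 0.31 in WAT and 0.38 ± 0.30 in liver, and Ccl1 was at -0.56 ± 0.28 in liver. Ccl27a, a skin ligand of CCR10, read 1.77 and 1.96 with a pair of probes in Pnpla7-/- WAT and 1.42 and 1.52 in wild-type WAT (log2 ratios 0.32 and 0.37). Its remaining probe read 0.103 in Pnpla7-/- WAT and 0.119 in wild-type WAT (-0.21 ± 0.22). In liver the pair read 2.43 and 2.72 in Pnpla7-/- mice and 2.88 and 3.29 in wild-type mice (-0.25 and -0.28), and the remaining probe 0.172 in Pnpla7-/- mice and 0.133 in wild-type mice (0.37 ± 0.21). Ccl19, a ligand of CCR7, had WAT ratios between 0.09 and 0.22 and liver ratios between -0.04 and 0.09 over its 3 probes, between 0.0804 and 0.123 in Pnpla7-/- WAT, 0.0757 and 0.105 in wild-type WAT, 0.152 and 0.183 in Pnpla7-/- liver, and 0.144 and 0.187 in wild-type liver. Ccl19 and Ccl27a lie in a part of chromosome 4 with near-identical copies in this strain, so the copy that gave the signal is uncertain.

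Cxcl17, a ligand of mucosal epithelium, was seen on the Pnpla7-/- WAT array alone. It read 0.0764 there and 0.00706 in wild-type WAT, where it was not well above background, and 0.00609 in Pnpla7-/- liver and 0.00376 in wild-type liver, also not well above background. Set against the lowest signal well above background on the wild-type WAT array, it was at least 5.44-fold higher in Pnpla7-/- WAT. Among 209 genes seen on that array alone, 52.2% had a bound of at least 2-fold, so such a bound was common. No ligand was seen on the wild-type WAT array alone, where 7.73% of 996 genes had a bound of at least 2-fold. Epithelial genes listed as bile duct markers stood in the same direction on these arrays, with all 8 measured of 10 above 0. Of these 3 were at least 2-fold higher, Wfdc2 at a log2 ratio of 6.87, Cldn3 at 4.58 and Krt18 at 2.17. The others lay between 0.17 (Krt7) and 0.92 (Krt8), with Krt19 at 0.24, and Spp1 was seen on neither WAT array. In WAT the list is read as epithelial genes and not as bile duct cells. These markers summed to 8.72 in Pnpla7-/- WAT and 2.62 in wild-type WAT. Their part in the Cxcl17 signal was not tested. Ccl28, a further mucosal ligand, read 0.0558 in Pnpla7-/- WAT and 0.0375 in wild-type WAT (0.57 ± 0.27).

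In Pnpla7-/- liver 3 ligands passed 2-fold. Ccl2 and the macrophage ligand Ccl4 were each 2.04-fold higher, and Cxcl13 was 3.36-fold lower. Of 21 measured ligands these were 9.52% higher and 4.76% lower, where 1.75% and 0.886% of 15567 genes were higher and lower. The median log2 ratio was 0.01 for the ligands and -0.03 for all genes, and the ligand median was -0.01 with quantile normalization and -0.24 or -0.28 with normexp, so it has no settled direction. With normexp the shares of all genes higher and lower were 0.662% and 1.55% (offset 50) and 0.726% and 9.42% (offset 0). The number of higher ligands fell to 0 under normexp, whichever the offset, and under quantile normalization. It rose to 4 of 35 when dim probes were kept and stayed at 2 otherwise, so the share of higher ligands depends on the processing. For lower ligands normexp gave 1 (offset 50) or 3 (offset 0).

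Ccl4, a ligand made by macrophages, read 0.0666 in Pnpla7-/- liver and 0.0326 in wild-type liver, a log2 ratio of 1.03 ± 0.28. In WAT it read 0.0239 in Pnpla7-/- mice and 0.0316 in wild-type mice. Pnpla7-/- liver was the highest array and the other 3 were dim and close together. The liver ratio reversed to -0.25 and -0.28 with normexp and an offset of 50 or 0, so its direction depends on the background correction.

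Ccl3, the neighbour of Ccl4, was seen in Pnpla7-/- liver alone of the liver arrays, and read 0.0284 there and 0.0125 in wild-type liver. Its bound was at least 1.64-fold higher, that of Ccl7 at least 1.80-fold and that of Ccl28 at least 1.06-fold. None of these 3 reached 2-fold, a bound that 12.2% of 755 genes seen on the Pnpla7-/- liver array alone had. No ligand was seen on the wild-type liver array alone, where 26.2% of 195 genes had such a bound.

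Among the other CC ligands in liver, Ccl6 read 1.85 in Pnpla7-/- mice and 1.20 in wild-type mice (log2 ratio 0.62 ± 0.20). Ccl9 read 11.9 in Pnpla7-/- liver and 11.8 in wild-type liver, a ratio of 0.01 ± 0.20, which the arrays could not tell from level. Ccl24 read 0.456 in Pnpla7-/- liver and 0.709 in wild-type liver (-0.64 ± 0.20). Ccl5 was at -0.13 ± 0.20, Cx3cl1 at 0.01 ± 0.22 and Cxcl16 at 0.22 ± 0.20.

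The CXCR3 ligands stayed within 2-fold in liver. Cxcl9 read 2.12 and 0.841 with its 2 probes in Pnpla7-/- liver and 1.66 and 0.604 in wild-type liver (log2 ratios 0.36 and 0.48). In WAT these probes read 1.74 and 0.658 in Pnpla7-/- mice and 1.99 and 0.748 in wild-type mice (-0.20 and -0.19). Cxcl10 was at 0.39 ± 0.20 in liver. Cxcl11, whose reading frame is interrupted in the C57BL/6 strain, read 111 with its bright probe in Pnpla7-/- liver and 129 in wild-type liver (-0.22 ± 0.20), and 127 in Pnpla7-/- WAT and 112 in wild-type WAT (0.18 ± 0.20). Its second probe read 3.22 in Pnpla7-/- liver and 3.55 in wild-type liver (-0.14 ± 0.20), and 3.80 in Pnpla7-/- WAT and 4.70 in wild-type WAT (-0.30 ± 0.20), so the probes differed in sign in WAT. The bright probe lies at base 1530 and the second at base 1457 of the same transcript. Their signals differ widely, so the level of Cxcl11 is uncertain. Interferon gamma target genes had a median of -0.17 in liver with 0 of 18 past 2-fold.

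Macrophage markers in liver summed to 51.4 in Pnpla7-/- mice and 49.9 in wild-type mice, with 19 of 20 measured and a median of -0.02 (0.04 with quantile normalization). Trem2 (a receptor of lipid-associated macrophages, log2 ratio 2.45) and Itgax (an integrin of myeloid cells, 1.26) were at least 2-fold higher, and Gpnmb at least 8.61-fold higher as a bound. In liver 55.8% of 15567 genes had ratios below 0. All 9 measured neutrophil markers were below 0, with a median of -0.76 and Ltf (lactoferrin) at -1.65. All 7 measured dendritic-cell markers were above 0, with Cd209a at 1.28. Their summed signal was 12.4 in Pnpla7-/- liver and 13.3 in wild-type liver, a sum in which bright probes weigh most and which need not follow the ratios. The dendritic-cell median of 0.15 turned to -0.19 with normexp and an offset of 50. The part of these cells in the liver values of Ccl2, Ccl4 and Cxcl13 was not tested.

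**Figure D3:**
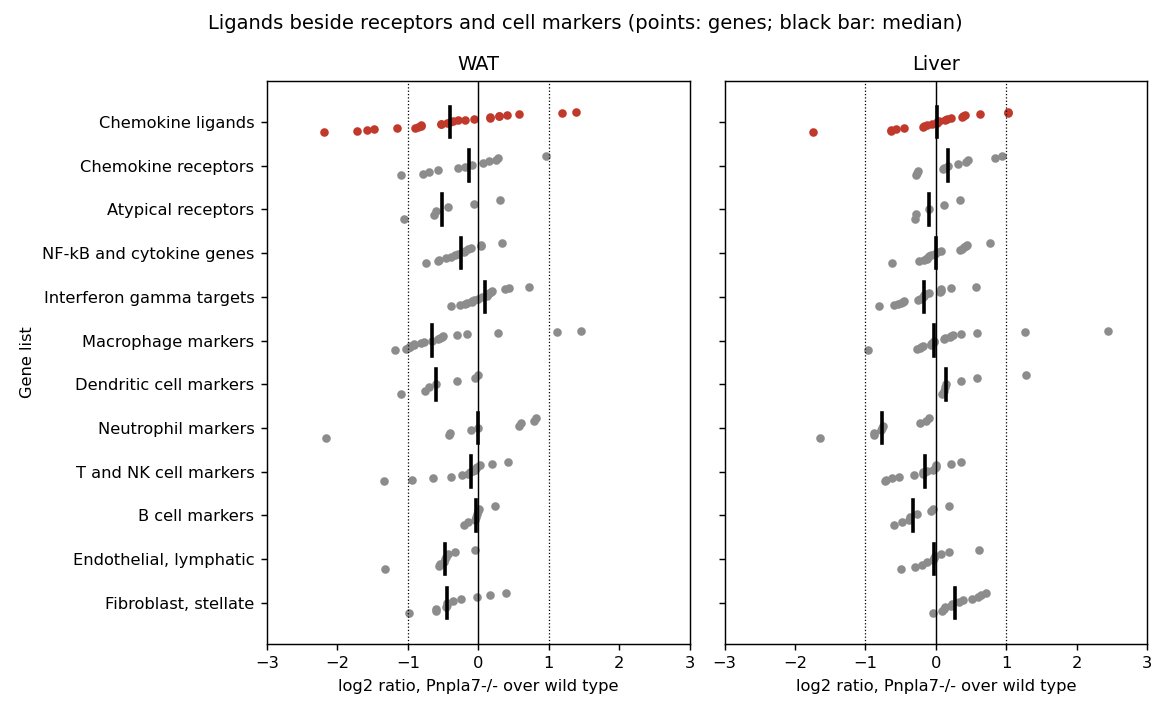
Log2 ratio of Pnpla7-/- over wild type on the x axis for ligands (red), receptors, signalling targets and cell markers (grey), 1 point per measured gene, with the list median as a black bar, in WAT on the left and liver on the right. Dotted lines mark 2-fold. The ligand median lies at -0.40 in WAT, where the macrophage median lies at -0.66, and at 0.01 in liver.

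Of 19 chemokine receptor genes 12 were measured in WAT, with Cxcr4 the 1 past 2-fold and a median log2 ratio of -0.14. With normexp 0 receptors passed 2-fold in WAT, and with quantile normalization 1 was higher and 1 lower. In liver 11 were measured, with 0 past 2-fold and a median of 0.17, which turned to -0.28 and -0.32 with normexp and an offset of 50 or 0. Ccr2, the receptor of Ccl2, Ccl7 and Ccl12, was at -0.57 in WAT and 0.94 in liver, and Cx3cr1, the fractalkine receptor of monocytes, at -0.70 in WAT and 0.84 in liver. Ccr8 was at 0.07 in WAT and -0.27 in liver. Ccr1, Ccr1l1, Ccr4, Cxcr2 and Xcr1 were not seen on any array. Among the atypical receptors, which bind chemokines without the usual signalling, Ackr4, a scavenger of Ccl19, Ccl21 and Ccl25, was at -1.05 in WAT and the other measured ones within 2-fold in both tissues. Ackr4 was within 2-fold with normexp (-0.54 with an offset of 50, -0.73 with 0) and by its brightest probe (-0.96).

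Pf4 and Ppbp are platelet chemokines outside the naming rule. Pf4 was at -0.98 in WAT and 0.85 in liver. Of the WAT arrays Ppbp was seen on the wild-type one alone, with Pnpla7-/- at least 2.29-fold lower, and it was at -1.56 in liver. Among other chemoattractants and processing genes, Saa3, an acute phase protein made by adipocytes and macrophages in mice, was at -2.15 in WAT and 1.76 in liver, and the other measured members were within 2-fold in both tissues.

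Between the tissues, 15 of the 21 ligands measured in both had Pnpla7-/- over wild-type ratios of opposite sign (71.4%), and so did 8444 of 14895 genes (56.7%). Of the 15, 10 were below 0 in WAT and above 0 in liver, as for Ccl2, Ccl4, Ccl6, Ccl8 and Cxcl16, and 5 the other way, Cxcl1 and Cxcl13 among them. With normexp and an offset of 50 or 0, 13 had opposite signs, 6 below 0 in WAT and above 0 in liver and 7 the other way, since the liver ratios of Ccl4, Ccl8, Ccl17 and Cx3cl1 turned below 0 and those of Ccl19 and Ccl25 did too. The 10 against 5 thus depends on the background correction, and some of these ratios, such as that of Ccl8 in liver, were smaller than their errors.

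More ligands passed 2-fold between the tissues than between the genotypes. On the Pnpla7-/- arrays 6 of 23 measured ligands were at least 2-fold higher in WAT than in liver and 6 lower, while 17.7% and 13.7% of 15337 genes were. On the wild-type arrays 5 of 21 were higher and 5 lower, while 18.1% and 15.6% of 15304 genes were. With normexp the wild-type shares of all genes were 11.9% and 15.6% (offset 50) and 12.7% and 21.0% (offset 0).

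**Figure D4:**
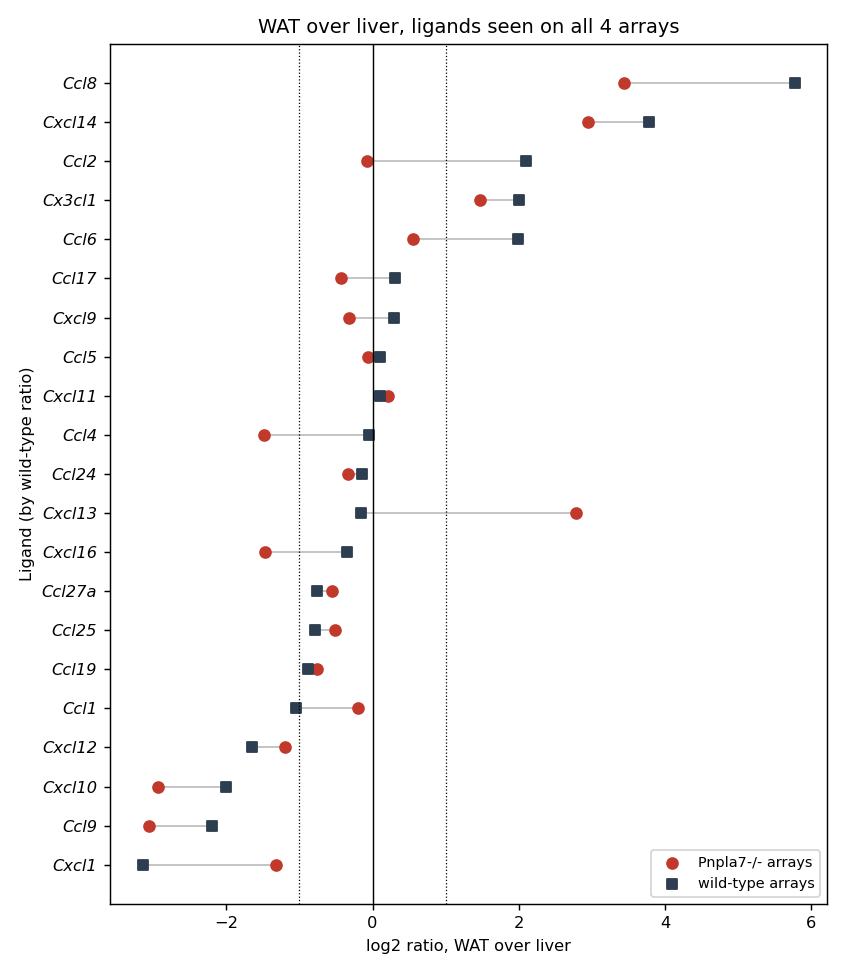
Log2 ratio of WAT over liver on the x axis for the 21 ligands seen on all 4 arrays, ordered by the wild-type ratio, with 1 pair of arrays per point. Red circles are Pnpla7-/- arrays, dark squares are wild-type arrays, and dotted lines mark 2-fold. Ccl2 lies at -0.08 for Pnpla7-/- and 2.10 for wild type, and Cxcl13 at 2.78 for Pnpla7-/- and -0.16 for wild type.

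Ccl8, Cxcl14 and Cx3cl1 were at least 2-fold higher in WAT in both genotypes. The log2 ratio of WAT over liver was 3.43 for Ccl8 in Pnpla7-/- mice and 5.77 in wild-type mice, 2.94 for Cxcl14 in Pnpla7-/- mice and 3.78 in wild-type mice, and 1.46 for Cx3cl1 in Pnpla7-/- mice and 2.0 in wild-type mice. Ccl11 was at least 119-fold higher in WAT than in liver in Pnpla7-/- mice and at least 140-fold in wild-type mice, and Ccl12 at least 5.94-fold in Pnpla7-/- mice and at least 16.9-fold in wild-type mice. Ccl7 had a log2 ratio of 2.24 in Pnpla7-/- mice and was at least 25.3-fold higher in WAT in wild-type mice. Ccl28 had a log2 ratio of 1.60 in Pnpla7-/- mice and was at least 2.17-fold higher in WAT in wild-type mice, and Cxcl17 was at least 5.11-fold higher in WAT in Pnpla7-/- mice.

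Cxcl1, Cxcl10, Ccl9 and Cxcl12 were at least 2-fold lower in WAT than in liver in both genotypes. Their log2 ratios were -1.31, -2.93, -3.05 and -1.20 in Pnpla7-/- mice and -3.14, -2.01, -2.19 and -1.65 in wild-type mice. Other ligands passed 2-fold in 1 genotype. Ccl2 and Ccl6 were higher in WAT on the wild-type arrays (2.10 and 1.99), and read -0.08 and 0.55 on the Pnpla7-/- arrays. Cxcl13 was higher in WAT on the Pnpla7-/- arrays (2.78) and read -0.16 on the wild-type arrays, and Ccl4 and Cxcl16 were lower in WAT on the Pnpla7-/- arrays (-1.48 and -1.47) and read -0.05 and -0.35 on the wild-type arrays. Ccl1 was lower in WAT on the wild-type arrays (-1.05) and read -0.20 on the Pnpla7-/- arrays. The differences between the genotypes in these tissue ratios were not tested.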

How the data were processed

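The deposited scanner files give an intensity per spot, written by Agilent Feature Extraction 11.0.1.1 per the file headers and processing notes of the submitters. Its processed signal is corrected for background within the array only. The authors' deposited value table is a linear ratio: each column was that signal divided by 1 constant per array (1613 for Pnpla7-/- WAT, 1690 for wild-type WAT, 1764 for Pnpla7-/- liver, 1470 for wild-type liver), with medians of 0.0875, 0.0876, 0.0751 and 0.0737 and no centring. It served as an alternative, and 0 columns were unmapped.

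Outlier spots (79 to 110 per array) were dropped, the 75th percentile of each array was subtracted from the log2 processed signals, and repeat spots were averaged. Measured probes had a share above 0.5 of spots well above background on both arrays of the pair. Ratios of a gene's measured probes were averaged and counted at 2-fold. A gene seen on 1 array was given as a bound, its signal there against the higher of the other array's lowest signal well above background and its own dim signal. Alternatives used limma 3.58.1 in R 4.3.3 (normexp, quantile), and other steps Python 3.11.15. Promoters came from RefSeq GRCm38.p6, and array coordinates are mm9. Kappa B and interferon-stimulated motifs were shortened by 1 letter after a longer form had been searched. Only the averaging of probes into gene ratios and the 2-fold count were tested on simulated data, with known differences and noise added to wild-type levels.

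Values on all arrays are printed for ligands past 2-fold, with a bound of at least 2-fold, or with probes of opposite sign. They are also printed for the 5 ligands with the brightest probes on either wild-type array. Up to 4 members of each other list with the largest ratios could be named. Values of other ligands and genes were printed after they were seen. Members and lists were chosen with earlier results of these data known.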

Additional observations from a re-analysis of the deposited data

Results flagged for a closer look

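For 4 ligands the Pnpla7-/- over wild-type log2 ratio had opposite signs in the tissues, each larger than 2 times its model error. With 1 array per group the difference between tissues was not tested. The WAT ratio minus the liver ratio was -2.18 for Ccl2 (-1.15 in WAT, 1.03 in liver) and -1.44 for Ccl6 (-0.82 in WAT, 0.62 in liver). It was 1.83 for Cxcl1 (1.38 in WAT, -0.45 in liver) and 2.94 for Cxcl13 (1.19 in WAT, -1.75 in liver).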

How the results depend on the processing

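Ccl2, Ccl8 and Cxcl14 in WAT and Cxcl13 in liver were past 2-fold under 8 of 8 settings, the one reported included. Ccl7 and Ccl12 in WAT were past it under 7 of 7, Cxcl1 and Cxcl13 in WAT under 7 of 8, and Ccl2 and Ccl4 in liver under 5 of 8. These settings are not independent, since several return the reported value of a ligand with 1 probe by construction or nearly so. Ccl2 and Ccl4 in liver were within 2-fold with quantile normalization (0.97 for either) and with normexp at either offset. With normexp and an offset of 50, 0 ligands were at least 2-fold higher in WAT and 0 in liver, the liver median was -0.24 and Ccl4 in liver reversed to -0.25. With normexp and an offset of 0, 0 ligands were higher and 3 lower in liver, the liver median was -0.28, Ccl4 in liver reversed to -0.28, and 8 ligands were lower in wild-type WAT than in wild-type liver. With quantile normalization 0 ligands were higher in liver. With no filter on dim probes 4 were higher in liver, 9 were higher in wild-type WAT than in wild-type liver, and the WAT median was -0.061, all over 35 ligands. With probes well above background on all 4 arrays 3 ligands were lower in WAT, since Ccl7 and Ccl12 were left out. Except for that filter, the causes were not tested. Of the comparisons' values under alternatives, 84 stayed within 1.5 times the count or within the disagreement between probes of a gene (for medians), and 12 are given above. That disagreement was wide between tissues (pooled SD 0.63 for Pnpla7-/- and 0.67 for wild type), so medians of WAT over liver have no settled size: that of Pnpla7-/- was -0.32 and turned to 0.23 with no filter on dim probes, and that of wild type was -0.15 and reached -0.52 with normexp and an offset of 0. Of single-ligand ratios, 97 moved by less than the error, 9 moved further with the same sign, and 4 turned sign with normexp, those of Ccl4 and Ccl8 in liver (-0.67 for Ccl8 with an offset of 50, -0.89 with 0). The 97 include the settings that return the reported value by construction or nearly so. Normexp moved the median of all genes in liver to -0.19 (offset 50) or -0.20 (offset 0), against -0.03, and relative to it the ligand median was -0.05 or -0.08, against 0.05. In wild-type WAT over liver the median of all genes moved to -0.21 or -0.23, against 0.04. Dim signals limit Ccl3, Ccl4, Ccl7 and Ccl8 in liver, and the receptor Cxcr5 in both tissues. No paired analysis was possible because each group holds 1 array.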
